A study of Mus musculus with 10 samples.

Results

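The epidermal growth factor receptor (EGFR) family was followed through 10 genes in RNA-seq of mouse tongue epithelial cultures. The members were the ligand genes Ereg, Areg, Tgfa, Hbegf, Epgn, Btc and Nrg1 and the receptor genes Egfr, Erbb2 and Erbb3. They were found by symbol among the 18586 rows of the deposited table, and all 10 were present. The values are TPM, a transcript abundance scaled for transcript length and to the same total in each library. In all, 9 of the 10 members reached 1 TPM in at least 4 libraries, the rule for entering the tests, as did 11630 genes of the whole table.

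Epithelial cells were taken from tongues 15 days after transgene induction, purified by their H2B-GFP signal and grown in culture before poly(A) RNA was sequenced. Both genotypes carried Krt14-CreERT, LSL-rtTA and tetON_H2B-GFP. EY cells carried tetON_E6-E7 and tetON_YAP1S127A in addition, and N cells, the normal condition, carried neither. In both, the Krt14 promoter, active in basal keratinocytes, drove a tamoxifen-dependent Cre that released the reverse transactivator rtTA, and doxycycline then switched on every tetON transgene. EY cells thus expressed the HPV16 oncogenes E6 and E7 and YAP1 S127A, a YAP form that escapes inhibitory phosphorylation, while the Cre, rtTA and H2B-GFP alleles, tamoxifen and doxycycline were common to both genotypes. There were 6 EY libraries, 2 from each of the lines EY3960, EY4028 and EY4174, and 4 N libraries, all from line N4172. Genotype and line therefore cannot be told apart, and p-values measure only the spread between these libraries. The study calls them biological replicates, without saying which libraries of a line came from separate animals. The culture medium of both genotypes also contained added EGF and cholera toxin, so every library had a soluble EGFR ligand supplied from outside.

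EGFR, ERBB2 and ERBB3 are receptor tyrosine kinases that signal as dimers. EREG (epiregulin), AREG (amphiregulin), TGFA, HBEGF, EPGN (epigen) and BTC (betacellulin) bind EGFR, HBEGF, BTC and EREG can also bind ERBB4, and NRG1 binds ERBB3 and ERBB4. The ligands are made as membrane-anchored precursors and are released by metalloproteases. ERBB2 has no known ligand and works as a partner, whereas ERBB3 has little kinase activity of its own and recruits PI3K. In stratified epithelia the pathway is known for driving basal keratinocyte proliferation and migration, and YAP with its TEAD partners is known to control several of its ligand genes. The comparison asks how the transcripts of these ligands and receptors differed between EY and N cells, and how far the 3 EY lines resembled each other.

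In each library, 10852 to 11522 genes reached 1 TPM and 14.1% to 20.5% of TPM came from mitochondrial genes. TPM keep no sequencing depth, so the depth is unknown and no counting interval could be given. Yap1, the gene of the activated transgene, was at 44.1 ± 9.54 TPM (SD, n = 6) in EY and 18.7 ± 1.79 TPM (SD, n = 4) in N, with all 6 EY libraries above all N libraries (log2 fold change 1.17, limma adjusted p = 1.73e-04). That row does not separate transgene from endogenous transcripts. The study's primers for the transgene are labelled as human YAP1, and how much of the transgene the Yap1 row counts is unknown. Without line EY4174 the difference of Yap1 was 0.99, just under the size of a call. The defining markers of the labelled tissue, Krt5, Krt14, Trp63, Cdh1, Epcam and Itga6, were present in every library and summed to 4189 to 7154 TPM in EY and 5161 to 5865 TPM in N. Fibroblast, endothelial and skeletal muscle markers each summed to at most 0.933 TPM in any library, and the melanocyte and Schwann cell list to 1.81 to 2.57 TPM in EY and 2.83 to 4.99 TPM in N. Libraries EY3960 sample 1 and 2 and N sample 4 stood apart for several family members, as given below.

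None of the 9 tested members passed both thresholds of a call in limma, an adjusted p under 0.01 and a log2 fold change beyond 1, while 5 had an unadjusted p under 0.05. Of all genes tested, 3.55% were called and 37.5% had an unadjusted p under 0.05. Tgfa and Hbegf passed the adjusted p alone and were higher in EY, a criterion met with a positive sign by 6.84% of all genes. Ereg had the largest log2 fold change of the tested members, 1.35, and missed the adjusted p. The median log2 fold change was 0.39 for the 9 tested members, beside 0.03 for all genes tested. It was 0.71 for the 6 tested ligands, which leave out Btc, and 0.26 for the 3 receptors.

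**Figure D1:**
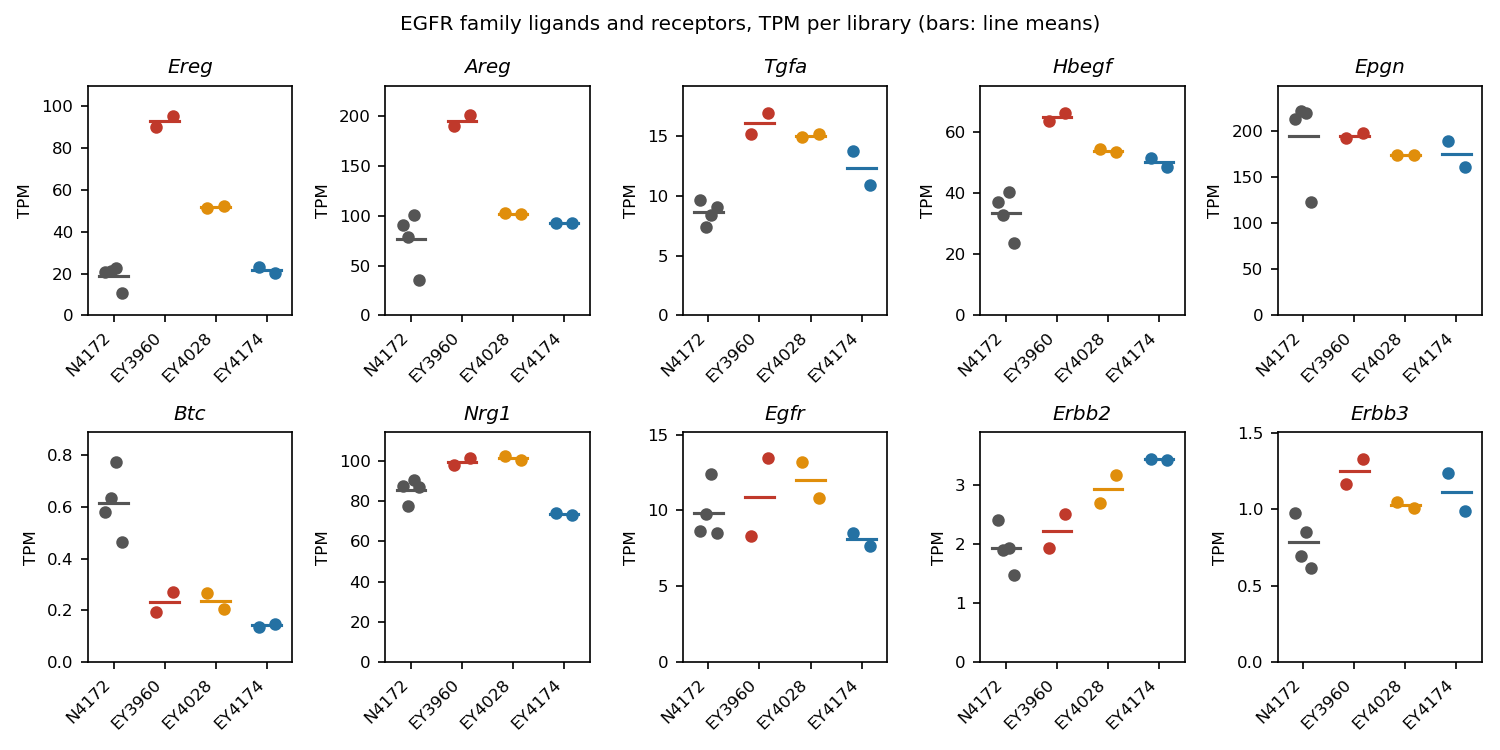
TPM (linear axis from 0) of each of the 10 family genes in every library, grouped by culture line, with points for libraries and bars for line means. Ereg falls from 92.9 TPM in EY3960 to 51.9 in EY4028 and 21.9 in EY4174, Tgfa and Hbegf lie above all N libraries in all 6 EY libraries, and Btc lies below all N libraries.

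Ereg encodes epiregulin, a ligand of EGFR and ERBB4. Its level was 90.25 and 95.5 TPM in the EY3960 libraries, 51.2 and 52.6 TPM in EY4028, 23.4 and 20.4 TPM in EY4174, and 20.6, 21.1, 22.7 and 10.5 TPM in N samples 1 to 4. The libraries thus formed a high pair, an intermediate pair and a low pair among EY, and the low pair overlapped the N libraries. The means were 55.6 ± 31.9 TPM (SD, n = 6) in EY and 18.7 ± 5.54 TPM (SD, n = 4) in N. On the log2(TPM + 1) scale this difference was 1.35 with a standard error of 0.47, and it missed the threshold (limma adjusted p = 0.0672). Line by line, Ereg was higher than N by 2.30 in EY3960 (limma adjusted p = 1.05e-04) and by 1.48 in EY4028 (limma adjusted p = 0.00199), both called, whereas EY4174 differed from N by 0.26 with a standard error of 0.25 (limma adjusted p = 0.459), a value that was 0.024 without N sample 4 (limma adjusted p = 0.838). Without line EY4174 the EY against N difference of Ereg was 1.89 and was called (limma adjusted p = 0.00215), and without line EY3960 it was 0.87 (limma adjusted p = 0.132). The call in EY4028 was lost when either of its libraries was left out (limma adjusted p = 0.0249 and 0.0258), the line then resting on a single library.

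Areg encodes amphiregulin, an EGFR ligand released by ADAM17. Areg was at 190.2 and 201 TPM in EY3960, 103 and 102 TPM in EY4028, 92.8 TPM in both EY4174 libraries, and 90.4, 79.2, 101 and 36.1 TPM in N samples 1 to 4. Only the EY3960 pair stood clear of the rest, and the EY4174 libraries fell inside the N range. The difference between EY (130.2 ± 50.9 TPM, SD, n = 6) and N (76.7 ± 28.5 TPM, SD, n = 4) was 0.77 on the log2(TPM + 1) scale with a standard error of 0.34 (limma adjusted p = 0.132), and 0.45 without N sample 4 (limma adjusted p = 0.282). The difference of line EY3960 from N was 1.44 (limma adjusted p = 0.0221), and leaving out N sample 4 made it 1.11 with a far smaller spread (limma adjusted p = 3.71e-06), past the thresholds of a call.

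Tgfa encodes transforming growth factor alpha, an EGFR ligand of keratinocytes. Its level was 15.1 and 16.9 TPM in EY3960, 14.9 and 15.1 TPM in EY4028, 13.7 and 10.9 TPM in EY4174, and 9.68, 7.37, 8.37 and 9.04 TPM in N samples 1 to 4. All 6 EY libraries lay above all 4 N libraries, a separation in this direction that 11.3% of all genes tested showed. The means were 14.4 ± 2.03 TPM (SD, n = 6) and 8.61 ± 0.986 TPM (SD, n = 4), a log2 difference of 0.68 with a standard error of 0.12 (limma adjusted p = 0.00202). The lines differed from N by 0.83 in EY3960 (limma adjusted p = 8.1e-04), 0.74 in EY4028 (limma adjusted p = 0.0019) and 0.47 in EY4174 (limma adjusted p = 0.0221).

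Hbegf encodes heparin-binding EGF-like growth factor, a ligand of EGFR and ERBB4. Hbegf was at 63.4 and 66.1 TPM in EY3960, 54.3 and 53.4 TPM in EY4028, 51.5 and 48.7 TPM in EY4174, and 37.2, 33.0, 40.5 and 23.6 TPM in N samples 1 to 4. Here too every EY library was above every N library, and the EY3960 pair was the highest. EY averaged 56.2 ± 6.93 TPM (SD, n = 6) and N 33.5 ± 7.34 TPM (SD, n = 4), a log2 difference of 0.75 with a standard error of 0.14 (limma adjusted p = 0.0029). By line the difference from N was 0.96 (limma adjusted p = 0.00189), 0.69 (limma adjusted p = 0.0118) and 0.59 (limma adjusted p = 0.0252) in EY3960, EY4028 and EY4174, and the EY3960 difference passed the size of a call without N sample 1 (1.01) or N sample 3 (1.05). For Tgfa and Hbegf, the adjusted p of the EY against N difference rose past 0.01 when N sample 2 was left out (0.011 and 0.0123, limma) or line EY4028 was left out (0.0151 and 0.014, limma), and with the line entered as a random block it was 0.058 and 0.0911 (limma). With each line averaged to a single value, 3 EY lines against 1 N line, it was 0.377 and 0.268 (limma).

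Epgn encodes epigen, a low-affinity EGFR ligand, and was the most abundant member in both groups. Its level was 192 and 198 TPM in EY3960, 175 and 174 TPM in EY4028, 190.0 and 162 TPM in EY4174, and 213, 222, 220.3 and 123 TPM in N samples 1 to 4. N sample 4 was the lowest of the 10 libraries, and the other 3 N libraries were above all EY libraries. With all libraries the means were 182 ± 13.9 TPM (SD, n = 6) in EY and 194 ± 47.8 TPM (SD, n = 4) in N, a log2 difference of -0.06 with a standard error of 0.15 (limma adjusted p = 0.802). Leaving out N sample 4 moved the difference to -0.27 (limma adjusted p = 0.0225), and leaving out line EY3960 with it, an alternative chosen after the values were seen, moved it to -0.32 (limma adjusted p = 0.00677).

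Btc encodes betacellulin, a ligand of EGFR and ERBB4, and did not reach 1 TPM in any library. It was at 0.194 and 0.273 TPM in EY3960, 0.266 and 0.205 TPM in EY4028, 0.137 and 0.147 TPM in EY4174, and 0.581, 0.635, 0.776 and 0.466 TPM in N samples 1 to 4. All 6 EY values were below all N values, with means of 0.204 ± 0.0574 TPM (SD, n = 6) and 0.615 ± 0.129 TPM (SD, n = 4). A separation in this direction was shown by 9.1% of all genes tested, a set that leaves out genes as low as Btc. In the fit without a filter on low values the difference was -0.42 with a standard error of 0.08 (limma adjusted p = 0.00309), on a scale where a pseudocount of 1 outweighs values this low.

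Nrg1 encodes neuregulin 1, the ligand of ERBB3 and ERBB4, and its level was close in both groups. Nrg1 was at 97.9 and 101 TPM in EY3960, 102 and 100.2 TPM in EY4028, 74.1 and 72.9 TPM in EY4174, and 87.5, 77.3, 90.3 and 86.8 TPM in N samples 1 to 4. The 4 libraries of EY3960 and EY4028 were above the N range and the 2 libraries of EY4174 below it. The difference of the means, 91.4 ± 13.98 TPM (SD, n = 6) and 85.5 ± 5.66 TPM (SD, n = 4), was 0.08 with a standard error of 0.11 on the log2 scale (limma adjusted p = 0.635). By line it was 0.22 in EY3960, 0.24 in EY4028 and -0.21 in EY4174, with limma adjusted p values of 0.0567, 0.0358 and 0.0594.

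Among the other ligand genes of the family, Nrg2, which encodes a further ligand of ERBB3 and ERBB4, was the only one tested, and it was called. Nrg2 was at 1.21 and 0.998 TPM in EY3960, 0.582 and 0.79 TPM in EY4028, 0.768 and 0.487 TPM in EY4174, and 4.07, 3.43, 3.15 and 5.59 TPM in N samples 1 to 4. Every EY library was below every N library, a separation in this direction that 9.1% of all genes tested showed. A call in this direction was made for 1.7% of them. The means were 0.805 ± 0.265 TPM (SD, n = 6) and 4.06 ± 1.09 TPM (SD, n = 4), a log2 difference of -1.48 with a standard error of 0.16 (limma adjusted p = 8.22e-05). It was called lower in each EY line, by -1.25, -1.56 and -1.62 in EY3960, EY4028 and EY4174, the call in EY3960 being lost without EY3960 sample 2 (limma adjusted p = 0.0132). The gene passed the filter through the 4 N libraries, its high group. With EY levels this low it could be tested only as a gene lower in EY. As it sat near 1 TPM in EY, the log2(TPM + 1) scale understates the fold. Egf itself was at 0.0818 to 0.283 TPM in EY and 0.114 to 0.55 TPM in N and Nrg4 at 0.351 to 0.853 TPM in EY and 0.685 to 0.96 TPM in N, both under the filter. Nrg3 and Erbb4 were not analysed here, having no row to match.

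Egfr, the receptor of most of these ligands, showed no difference between the groups beyond the spread of the libraries. It was at 8.33 and 13.5 TPM in EY3960, 13.2 and 10.8 TPM in EY4028, 8.53 and 7.65 TPM in EY4174, and 8.67, 9.77, 12.4 and 8.52 TPM in N samples 1 to 4. The EY3960 pair alone spanned most of the range, and the groups overlapped. EY averaged 10.3 ± 2.56 TPM (SD, n = 6) and N 9.84 ± 1.80 TPM (SD, n = 4), a log2 difference of 0.05 with a standard error of 0.17 (limma adjusted p = 0.871). Its sign turned in 6 of 23 alternative settings.

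Erbb2, the ligandless partner receptor, was at 1.94 and 2.50 TPM in EY3960, 2.68 and 3.16 TPM in EY4028, 3.43 and 3.42 TPM in EY4174, and 2.41, 1.90, 1.93 and 1.47 TPM in N samples 1 to 4. In all, 5 of 6 EY libraries were above the N range, and the lines followed the order opposite to that of Ereg, an order of line means that 17.9% of all genes tested had. The means of 2.86 ± 0.591 TPM (SD, n = 6) and 1.93 ± 0.383 TPM (SD, n = 4) differed by 0.39 with a standard error of 0.15 on the log2 scale, which missed the threshold (limma adjusted p = 0.0728). Line EY4174 differed most from N, by 0.61 (limma adjusted p = 0.0147).

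Erbb3, the receptor that recruits PI3K, was at 1.17 and 1.33 TPM in EY3960, 1.05 and 1.01 TPM in EY4028, 1.24 and 0.99 TPM in EY4174, and 0.973, 0.691, 0.854 and 0.614 TPM in N samples 1 to 4. All 6 EY libraries were above all 4 N libraries, by as little as 0.99 against 0.973 TPM, a separation that 11.3% of all genes tested showed. Erbb3 passed the filter through EY libraries alone, so that it could enter the tests only as a gene higher in EY. Its means were 1.13 ± 0.137 TPM (SD, n = 6) and 0.783 ± 0.161 TPM (SD, n = 4), a log2 difference of 0.26 with a standard error of 0.12 that was not significant (limma adjusted p = 0.135). In bulk RNA, fewer cells that express a gene and less of its RNA in each cell cannot be told apart, here and for every member.

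**Figure D2:**
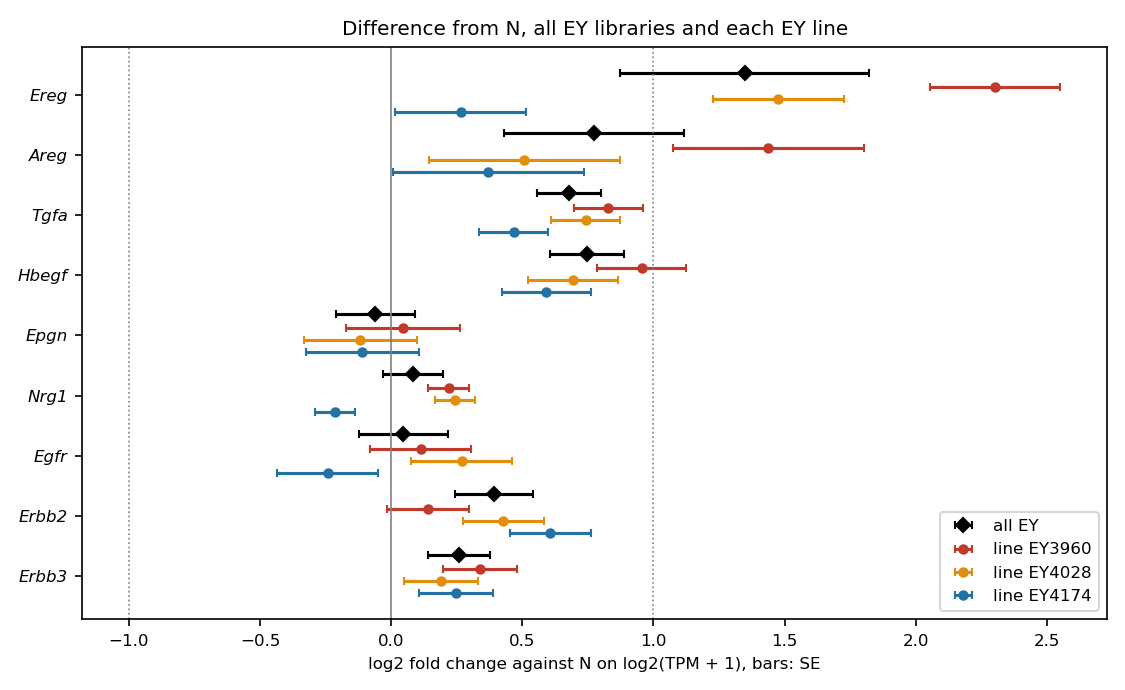
Log2 fold change against N on log2(TPM + 1) for the 9 tested family genes (rows), with all 6 EY libraries in black and each EY line in color, bars giving the standard error and dotted lines a log2 fold change of 1 either way. Ereg spans 0.26 in EY4174 to 2.30 in EY3960, whereas Tgfa lies between 0.47 and 0.83 and Hbegf between 0.59 and 0.96 in the 3 lines.

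The 3 EY lines were next compared with each other, using only the 6 EY libraries. Ereg and Areg were called different between lines, at an adjusted p under 0.01 and a log2 difference over 1 for some pair of lines, a call made for 5.8% of all genes tested. The largest difference was 2.04 for Ereg (limma adjusted p = 2.29e-05) and 1.07 for Areg (limma adjusted p = 6.79e-05), each between EY3960 and EY4174. In TPM, the mean of EY3960 was 4.24 times that of EY4174 for Ereg and 2.11 times for Areg. For Ereg the EY4028 mean lay between the other lines, 1.21 above EY4174 on the log2 scale, whereas for Areg it was only 0.14 above EY4174. Nrg1 passed the adjusted p, as did 10.8% of all genes tested (limma adjusted p = 0.00349), with a largest difference of 0.46, between EY4028 and EY4174, under the size for a call. Hbegf, with a largest difference of 0.36, missed the threshold (limma adjusted p = 0.0206), as did Tgfa with 0.36 (limma adjusted p = 0.146), Egfr with 0.51 (limma adjusted p = 0.206), Erbb2 with 0.47 (limma adjusted p = 0.123), Epgn with 0.16 (limma adjusted p = 0.264) and Erbb3 with 0.15 (limma adjusted p = 0.697).

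Ereg, Areg, Tgfa and Hbegf all had their line means in the order EY3960, EY4028, EY4174, an order that 23.9% of all genes tested had. Against N, 1 member was called in EY3960 and 1 in EY4028, in each case Ereg, where 7.04% and 5.74% of all genes tested were called, and no member was called in EY4174, where 4.95% were. The members with an unadjusted p under 0.05 in limma numbered 6 of 9 in EY3960, 5 in EY4028 and 4 in EY4174, where 39.8%, 41.1% and 41.4% of all genes had one. These line comparisons share the same 4 N libraries. The Yap1 row had means of 39.4, 36.8 and 56.0 TPM in EY3960, EY4028 and EY4174, another order than that of Ereg. As the share of the transgene in that row is unknown, it does not measure activated YAP in a line. A relation of YAP level to the line order was not tested.

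Other transcripts also followed the order of the lines. The 9 tested of 12 suprabasal keratinocyte markers and Lor, with no row for Krt1 and Flg, summed to 2905 and 2979 TPM in EY3960, 2060 and 2055 TPM in EY4028, 1865 and 1845 TPM in EY4174, and to 2670 TPM in N sample 4 against 1734 to 1912 TPM in the other N libraries. Krt6a made up most of these sums, with means of 1889, 1694 and 1688 TPM in EY3960, EY4028 and EY4174. Sprr1b, a cornified envelope precursor, was at 605, 224 and 73.1 TPM in the means of EY3960, EY4028 and EY4174. Krt13, Krt16, Ivl, Sprr1a, Sprr3 and Lor had the same order of lines. Krt10, at 5.18, 5.48 and 4.56 TPM, and Krt4, at 8.30, 0.705 and 1.85 TPM, did not. The leukocyte list, of which 5 of 9 genes had a row and 3 were tested, summed to 149 and 143 TPM in EY3960, 44.6 to 59.9 TPM in the other EY libraries and 43.2 to 77.7 TPM in N. That sum came almost wholly from Cd68, S100a8 and S100a9, of which the S100 genes are also made by keratinocytes, while Ptprc, which marks all leukocytes, averaged 0.141 TPM in EY and 0.0918 TPM in N. Sums of the basal and epithelial list ran the other way, at 4189 and 4422 TPM in EY3960, 5650.0 and 5693 TPM in EY4028 and 6429 and 7154 TPM in EY4174. Krt5 and Krt14 made up most of these sums. In the same line order Krt5 had means of 1392, 1911 and 2527 TPM and Krt14 of 2542, 3403 and 3938 TPM. Itga6 instead followed the order of Ereg, at 249, 224 and 194 TPM, and Trp63 was level at 52.4, 53.4 and 53.3 TPM. Cdh1 and Epcam differed little between lines (limma adjusted p = 0.371 and 0.123). The part of all these transcripts in the ligand differences was not tested. N sample 4, which had the lowest Ereg, Areg, Hbegf and Epgn of the 10 libraries, was also below the other N libraries for 36.6% of all genes tested.

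The composition of the ligand transcripts was described by summing the 6 EGFR ligands of the list in each library. The sum was 551 and 578 TPM in EY3960, 398 and 397 TPM in EY4028, 372 and 335 TPM in EY4174, and 372, 363, 394 and 203 TPM in N samples 1 to 4. EY3960 alone stood above the N range by a wide margin, EY4028 was just above it and EY4174 was within it. Epgn made up 42.7% ± 6.89 (SD, n = 6) of the sum in EY and 58.8% ± 2.51 (SD, n = 4) in N, and its share in each EY library, 34.3% to 51.1%, was below its share in each N library, 55.9% to 61.1%. Ereg made up 11.9% ± 4.67 (SD, n = 6) in EY and 5.58% ± 0.28 (SD, n = 4) in N, from 16.4% and 16.5% in EY3960 to 6.29% and 6.10% in EY4174. N sample 4, low in TPM for both genes, had shares of 60.7% Epgn and 5.20% Ereg. Areg held 28.9% ± 4.54 (SD, n = 6) in EY and 22.4% ± 3.46 (SD, n = 4) in N, Hbegf 13.1% ± 1.30 and 10.2% ± 1.05, and Tgfa 3.36% ± 0.456 and 2.81% ± 1.13. Shares within a library sum to a fixed total, so a lower share of Epgn and higher shares of the others are not separate observations.

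**Figure D3:**
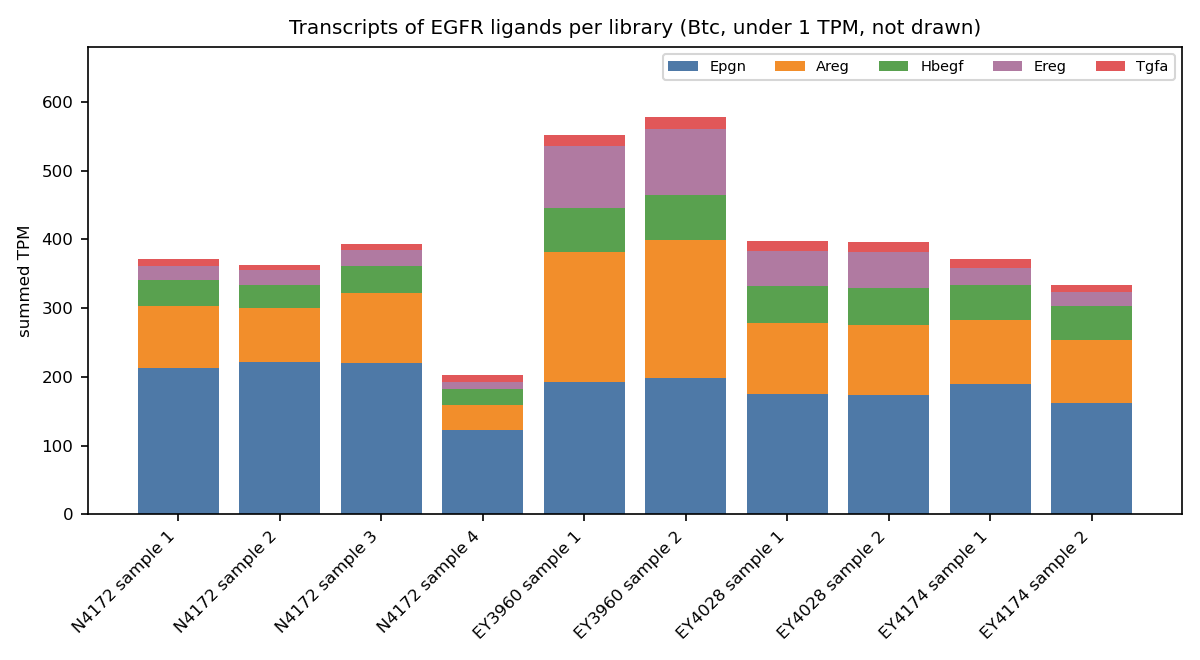
Summed TPM of 5 EGFR ligands in each library (bars from 0, stacked by gene, with Btc left out as it is under 1 TPM). Epgn forms the largest segment in every library except EY3960 sample 2, where Areg is slightly larger. The bars of EY3960 reach 551 and 578 TPM through their Areg and Ereg segments, and the bar of N sample 4 reaches 203 TPM.

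As TPM are scaled for length, levels could be compared between genes. In N the order was Epgn, Nrg1, Areg, Hbegf, Ereg, Egfr, Tgfa, Erbb2, Erbb3 and Btc, in which the ranges over libraries of neighbours overlapped for Nrg1 and Areg, Egfr and Tgfa, and Erbb3 and Btc, and, through N sample 4, for Areg and Hbegf and for Ereg and Egfr. By the means over all 6 EY libraries it was Epgn, Areg, Nrg1, Hbegf, Ereg, Tgfa, Egfr, Erbb2, Erbb3 and Btc, in which Hbegf and Ereg had nearly equal means, 56.2 and 55.6 TPM, and the ranges of neighbours also overlapped for Epgn and Areg, Areg and Nrg1, and Tgfa and Egfr. The order was not that of each line. In EY3960 Ereg was above Hbegf, at 92.9 against 64.8 TPM, and Areg and Epgn were level at 196 and 195 TPM, whereas in EY4174 Ereg was below Hbegf, at 21.9 against 50.1 TPM. Receptor transcripts were thus far below those of the abundant ligands in both groups. Egfr made up 71.5% ± 6.27 (SD, n = 6) of the TPM of the 3 receptors in EY and 78.2% ± 4.34 (SD, n = 4) in N, with overlapping ranges.

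Epgn, Ereg, Areg and Btc are neighbours on chromosome 5, in that order in the RefSeq annotation of GRCm38, after Cxcl1, Cxcl2 and Mthfd2l and before Parm1. Their values show how unlike neighbouring members of the family were, with Epgn similar in EY and N, Ereg and Areg varying between EY lines and Btc lower in EY. Mthfd2l, a mitochondrial folate enzyme gene directly before Epgn, had a log2 difference of 0.14 (limma adjusted p = 0.561), Cxcl2, a chemokine gene before that, one of -0.04 (limma adjusted p = 0.87), and Cxcl1, a chemokine gene further before it, one of 1.89 (limma adjusted p = 9.35e-07). RefSeq promoter sequences were matched for 6 members, Areg, Epgn, Btc, Tgfa, Egfr and Erbb2. The 250 bases before the start of the 3 matched neighbours are printed to set their sequences beside their unlike values, and those of Erbb2 because they hold a TEAD motif. The searched motifs, on both strands, were the cyclic AMP response element TGACGTCA, the AP-1 site TGANTCA, the TEAD motif GGAATG and the TATA box TATAAA, and capitals mark each match. Coordinates are those of GRCm38.p6, and each sequence runs 5′ to 3′ on the gene's strand, Epgn from chr5:91027267-91027516 (+), Areg from chr5:91139349-91139598 (+), Btc from chr5:91402995-91403244 (-) and Erbb2 from chr11:98412234-98412483 (+).
Epgn: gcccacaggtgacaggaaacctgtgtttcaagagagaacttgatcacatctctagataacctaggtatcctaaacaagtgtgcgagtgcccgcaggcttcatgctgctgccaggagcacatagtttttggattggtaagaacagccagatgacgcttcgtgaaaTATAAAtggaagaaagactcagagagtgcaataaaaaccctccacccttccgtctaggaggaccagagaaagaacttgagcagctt
Areg: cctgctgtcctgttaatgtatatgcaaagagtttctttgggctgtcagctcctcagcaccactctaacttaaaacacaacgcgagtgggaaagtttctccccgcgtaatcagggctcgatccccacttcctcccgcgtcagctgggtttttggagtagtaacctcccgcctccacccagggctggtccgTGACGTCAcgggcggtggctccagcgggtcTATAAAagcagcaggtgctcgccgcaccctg
Btc: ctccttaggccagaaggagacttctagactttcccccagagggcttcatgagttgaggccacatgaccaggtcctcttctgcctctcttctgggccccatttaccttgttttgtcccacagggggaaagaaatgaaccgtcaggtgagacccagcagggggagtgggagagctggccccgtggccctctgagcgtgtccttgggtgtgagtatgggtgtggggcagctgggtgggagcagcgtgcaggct
Erbb2: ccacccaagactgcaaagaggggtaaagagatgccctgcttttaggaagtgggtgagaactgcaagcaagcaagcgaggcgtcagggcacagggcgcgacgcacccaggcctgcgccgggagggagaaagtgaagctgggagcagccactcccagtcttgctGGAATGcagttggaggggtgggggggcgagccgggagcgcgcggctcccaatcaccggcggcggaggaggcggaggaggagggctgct
The Areg window held a cyclic AMP response element whose first base lies at position -61 from the start and a TATA box at -31. A cyclic AMP response element was present in 1.55% of the 32851 RefSeq windows of this length and a TATA box in 12.4%. The Epgn window held a TATA box at -86 and none of the other motifs, and the Btc window held none of the 4. Of the 6 matched members, Erbb2 alone had the TEAD letters, at -88, which 12.6% of all windows had, and none had the AP-1 letters, which 6.75% had. The windows of Btc, Epgn, Areg and Erbb2 contained 4, 5, 15 and 16 CG dinucleotides, against a median of 6 over all windows. These matches describe letters and not bound sites.

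The genes that act on the ligands and receptors were read from 5 further lists, with errors given as SD over 6 EY and 4 N libraries. Beside the counts of each list stand 3.55% of all genes tested called between EY and N. An unadjusted p under 0.05 in limma was found for 37.5% of them. Of the ligand sheddases and their cofactors, 8 of 10 were tested and none was called in limma, with 5 at an unadjusted p under 0.05, and the median log2 difference was 0.31. Rhbdf1, an inactive rhomboid that carries ADAM17 to the cell surface, passed the adjusted p, at 15.9 ± 2.86 TPM in EY and 9.06 ± 1.88 TPM in N (log2 difference 0.76, limma adjusted p = 0.00514), and it did so in 12 of 23 alternatives. The next smallest adjusted p was that of the metalloprotease gene Adam15 (log2 difference 0.46, limma adjusted p = 0.0199). Adam17 itself, the main sheddase of Areg, Ereg, Tgfa and Hbegf, had a log2 difference of -0.07 (limma adjusted p = 0.588), and was named here after its value was seen.

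All 12 inhibitors of the receptors were tested, none was called between EY and N in limma and 6 had an unadjusted p under 0.05, with a median log2 difference of -0.17. Cblc, a ubiquitin ligase of activated EGFR, was at 7.94 ± 1.15 TPM in EY and 4.64 ± 0.371 TPM in N (log2 difference 0.66, limma adjusted p = 0.00171). Socs4, a suppressor of cytokine signaling that acts on EGFR, was at 10.5 ± 1.53 TPM in EY and 14.5 ± 0.808 TPM in N (log2 difference -0.43, limma adjusted p = 0.0136), short of the threshold. Between EY lines, Errfi1 and Sh3kbp1 were called, a call made for 5.8% of all genes tested. Errfi1, which encodes the feedback inhibitor MIG6, had means of 54.8, 38.7 and 26.9 TPM in EY3960, EY4028 and EY4174 and 23.6 TPM in N, the line order of Ereg (largest difference 1.01, limma adjusted p = 0.00244), and its difference between lines was under the thresholds of a call in 6 of 12 alternatives, among them those without EY3960 sample 1, EY3960 sample 2 or EY4174 sample 2, where it was 1.06, 0.95 and 0.85 (limma adjusted p = 0.0164, 0.0216 and 0.00256). Sh3kbp1, an adaptor in EGFR endocytosis, had means of 3.60, 3.11 and 0.898 TPM in the same lines and 4.63 TPM in N (largest difference 1.27, limma adjusted p = 0.00231). Its call was lost without EY3960 sample 1 or EY4174 sample 2 (limma adjusted p = 0.0115 and 0.0124).

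Of 6 partner receptors and cofactors, 5 were tested and none was called between EY and N in limma, with 1 at an unadjusted p under 0.05. Met, the receptor of hepatocyte growth factor, was at 90.8 ± 11.5 TPM in EY and 125 ± 23.2 TPM in N (log2 difference -0.45, limma adjusted p = 0.021). Axl, a receptor kinase that can associate with EGFR, had an EY against N log2 difference of 0.64 (limma adjusted p = 0.222) and was split between lines. Its means were 27.5 TPM in EY3960, 77.1 TPM in EY4028 and 75.9 TPM in EY4174, beside 34.7 TPM in N, and the lines differed by up to 1.46 (limma adjusted p = 1.21e-04). EY3960, the line with the highest Ereg and Areg, was the line with the lowest Axl. Without that line Axl was called higher in EY, by 1.12 (limma adjusted p = 2.85e-05).

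All 25 transducers between the receptors and ERK, PI3K and STAT were tested, none was called in limma and 8 had an unadjusted p under 0.05, with a median log2 difference of 0.08. Pik3r1, the regulatory subunit of PI3K, passed the adjusted p with 2.17 ± 0.385 TPM in EY and 3.55 ± 0.344 TPM in N (log2 difference -0.53, limma adjusted p = 0.00983), and it kept to that side in 6 of 23 alternatives. Map2k2, which encodes the ERK kinase MEK2, was at 72.1 ± 9.19 TPM in EY and 54.9 ± 2.45 TPM in N (log2 difference 0.38, limma adjusted p = 0.0137).

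Of 17 transcripts known to be induced by ERK signaling, 16 were tested. Phlda1, a pleckstrin homology domain gene, was the only one called between EY and N, at 83.6 ± 11.5 TPM in EY and 41.4 ± 9.92 TPM in N with no overlap (log2 difference 1.02, limma adjusted p = 9.83e-04). Being close to the size threshold, it was under the thresholds of a call in 10 of 23 alternatives, among them those without EY4028 sample 1, EY4028 sample 2, line EY4028 or N sample 4, where its difference was 0.98, 0.98, 0.92 and 0.83. Calls in the higher direction made up 1.85% of all genes tested, and 11.3% had all EY libraries above all N libraries. The median log2 difference of the 16 was 0.07. Among them Myc passed the adjusted p (log2 difference 0.51, limma adjusted p = 0.00711) and Dusp6, an ERK phosphatase widely used as a readout of ERK activity, had a log2 difference of -0.51 (limma adjusted p = 0.0468), with both named after their values were seen. For Dusp6, N sample 4 was at 22.7 TPM, below every EY library (23.5 to 28.9 TPM), while the other 3 N libraries were at 43.3 to 45.1 TPM.

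**Figure D4:**
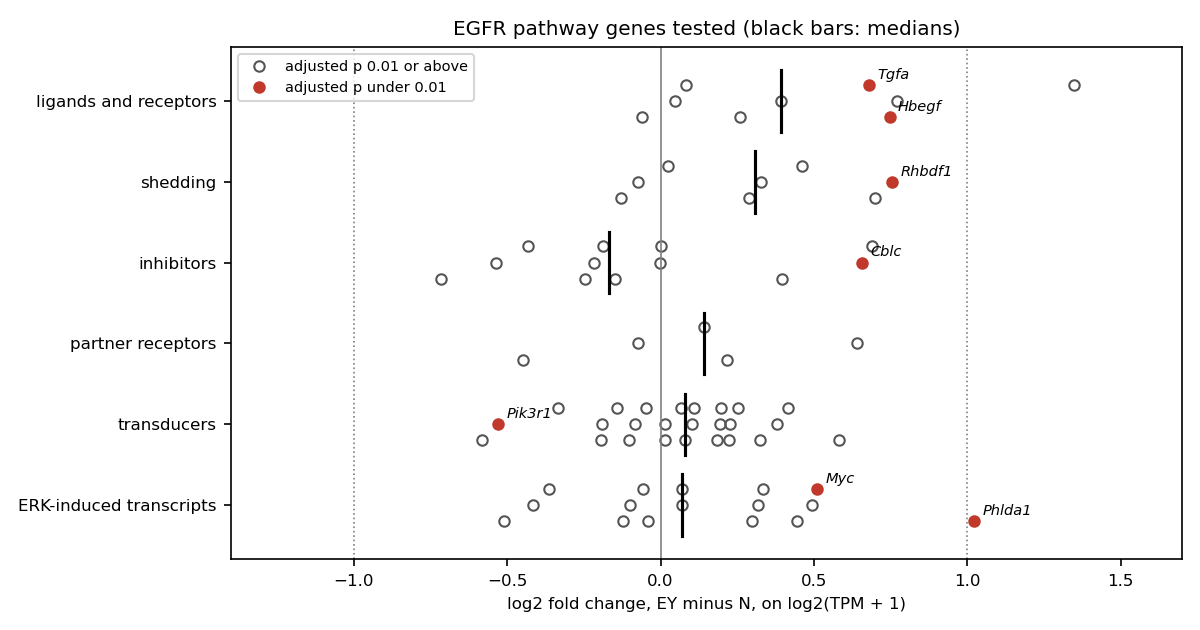
Log2 fold change, EY minus N on log2(TPM + 1), of the 9 tested members and of every tested gene of the 5 pathway lists, with Nrg2 not drawn, 1 row of points per list with a black bar at the median. Filled points mark the 7 drawn genes with an adjusted p under 0.01, of which Phlda1 alone lies beyond 1, and the open point at 1.35 is Ereg.

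The genes most like Ereg over the 10 libraries were sought among all genes tested, since Ereg had both the largest EY against N difference and the largest difference between lines of all members. The highest Pearson correlations of log2(TPM + 1) were 0.987 for Samhd1, 0.984 for Stk17b and 0.980 for Dusp5. SAMHD1 is a dNTP hydrolase, STK17B a serine/threonine kinase and DUSP5 a nuclear ERK phosphatase that ERK itself induces. Dusp5 had means of 39.4, 33.0 and 25.2 TPM in EY3960, EY4028 and EY4174 and 22.5 TPM in N. Among members the correlation with Ereg was 0.895 for Areg, 0.878 for Hbegf, 0.817 for Tgfa, 0.747 for Erbb3, 0.706 for Nrg1, 0.475 for Egfr, 0.308 for Epgn and 0.213 for Erbb2. In this ranking Areg was number 223 of all genes. The points of these correlations come from 4 lines, so they largely restate line means, and libraries of a line share their source.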

How the data were processed

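Cultures of 6 EY and 4 N libraries were measured by poly(A) RNA-seq. The authors deposited TPM per gene symbol for 18586 rows, and all columns were used. The submitters' processing notes name STAR 2.7.9, SAMtools 1.7, HTSeq 0.13.5, DESeq2 1.34.0 and GRCm39. The study's methods also describe Kallisto TPM against a human transcriptome, keeping the highest transcript of a gene, and the table does not say which step gave its values, so levels of genes with close relatives carry that doubt.

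The 11630 genes that reached 1 TPM in 4 or more libraries were tested on log2(TPM + 1) with limma 3.58.1 (R 4.3.3, trend and robust variances, two-sided, Benjamini-Hochberg over all genes tested). Fold changes on this scale understate those of low genes. A call required an adjusted p under 0.01 and a log2 fold change beyond 1, as in the study's methods. EY was compared with N, the 3 EY lines with each other by an F test, and each line with N. Scripts were tested on simulated data with independent libraries, which does not cover the likeness of libraries within a line. The study calls its replicates biological, but neither it nor the labels say how the libraries of a line were separated.

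Members and lists were chosen with earlier results of these data known. Named were all members, Yap1, the called genes of each pathway list or else the 2 with the smallest adjusted p, the 2 most different between EY lines where called, and the 3 genes most correlated with Ereg. Alternatives were pseudocount 0.1, other filters, quantile scaling, removal of mitochondrial genes, plain variances, blocks and left-out libraries or lines.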

Additional observations from a re-analysis of the deposited data

Results flagged for a closer look

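Some values stood out from the others of their group. In N, sample 4 had the lowest Ereg, 10.5 TPM against 20.6 to 22.7 TPM in the other 3 N libraries. It also had the lowest Epgn, 123 TPM against 213 to 222 TPM, and the highest Sh3kbp1, 7.57 TPM against 3.41 to 3.97 TPM. These were the 3 found in 46 groups examined by the ratio of a gap to the range (Dixon's test), where chance gives about 1 in 20, or 2.3. That rate is for independent values and need not hold for EY groups, which are pairs of libraries from a line. All 3 fell on the same library, so the 2 counts do not tell whether it deviates.

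Other values were set apart by a test of the difference between EY lines (limma F test, adjusted p under 0.01). On the log2 scale EY3960 was above EY4174 by 2.04 for Ereg, 1.07 for Areg, 1.27 for Sh3kbp1 and 1.01 for Errfi1. Axl differed by 1.46 between EY3960 and EY4028, with EY3960 lower.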

How the results depend on the processing

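The limits are set by 1 N line, unknown depth and few libraries. Members with an adjusted p under 0.01 between EY and N numbered 2 in the reported fit and 0 to 3 in 23 alternatives. Calls between EY and N numbered 413 and were 216 when 1 TPM was required in every library, 203 with line as a random block (correlation within lines 0.44) and 2 with the mean of each line. Under that strict filter calls were 403 instead of 675 between EY lines, 455 instead of 819 for EY3960, 371 instead of 668 for EY4028 and 317 instead of 576 for EY4174. Leaving out single libraries gave 407 to 664 calls between EY lines, the lowest without EY3960 sample 2 (407) or sample 1 (408).

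Differences near 0 turned sign, and the cause was not tested. For Egfr, EY against N ranged from -0.030 to 0.15 without single libraries and was -0.064 without line EY4028 and -0.044 without N sample 4 and line EY3960 together, and EY3960 against N ranged from -0.20 to 0.43 without single libraries. For Epgn, EY against N ranged from -0.27 to 0.015 without single libraries, EY3960 against N from -0.16 to 0.12 and EY4174 against N from -0.32 to 0.0063. Epgn in EY3960 was also -0.068 with quantile scaling and -0.018 without mitochondrial genes.

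The sample number within a line as a replicate block gave 221 calls. The numbers do not pair the samples: differences between same-numbered samples correlated from -0.15 to 0.05 between lines. Under this block Tgfa and Hbegf had limma adjusted p values of 0.037 and 0.0206, and Yap1 of 0.0137. The higher sample numbers occur in N alone, so those N libraries added nothing to the EY against N difference under this block. These p values and the 221 calls thus rest on fewer N libraries, and they do not show what the block itself changed.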
